A study of Mus musculus with 20 samples.

Results

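Granzymes A, B and K, encoded by Gzma, Gzmb and Gzmk, were followed in CD8 T cells recovered from mouse melanoma. The 3 genes were taken by name from the 27916 gene columns used, and their values come from the 5024 CD8 T cells among 7398 kept cells. The cells were OT-I T cells, whose transgenic receptor recognises a peptide of chicken ovalbumin, and they had been transferred into mice with B16-OVA, a melanoma line engineered to make ovalbumin. Tumour-infiltrating cells were collected 8 days after the transfer and sequenced in droplets (10x Chromium 3′ chemistry, version 2). The 4 groups were wild-type OT-I cells without treatment (WT untreated), wild-type cells with anti-PD-L1, an antibody that blocks a ligand of the T cell checkpoint receptor PD-1 (WT anti-PD-L1), Tet2-/- OT-I cells without treatment (KO untreated) and Tet2-/- OT-I cells with anti-PD-L1 (KO anti-PD-L1). Tet2 is an enzyme that oxidises 5-methylcytosine in DNA. Each group was 1 library, so no difference below was tested between conditions, no p-value is given, and intervals cover counting error only. How many mice went into a library is not given in the sources used here.

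Granzymes are serine proteases that cytotoxic lymphocytes store in granules and deliver into target cells through pores made by perforin. Granzyme B cuts after aspartate and activates caspases and Bid in the target, whereas granzymes A and K cut after basic residues. In tumours, Gzmb is widely used as a mark of effector differentiation of CD8 T cells, and Gzmk has been used to mark a less differentiated effector-memory-like state.

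The libraries were not alike in ways that touch every value below. CD8 T cells were 48.9% of kept cells in WT untreated and 69.9% to 82.3% in the other libraries, and their UMIs (unique molecular identifiers, 1 per captured molecule) summed to 4852627 in WT untreated and to between 7989003 and 8219648 elsewhere. The median CD8 T cell held 3750 UMIs in WT untreated, 5428 in WT anti-PD-L1, 4413 in KO untreated and 6834.5 in KO anti-PD-L1. WT untreated also stood apart in clustering, with 417 and 533 of its 1124 CD8 T cells in clusters 4 and 7, which held 481 and 576 cells over all libraries, so the comparisons that use it are set beside those that do not. Summed melanoma markers in CD8 T cells were 94.4 CPM (a gene's UMIs as counts per 1000000) in WT untreated and 14.9 to 27.2 CPM elsewhere, and the 5 CD8 and CD3 genes were detected in all libraries at a summed 3893 CPM there and 4942 to 5433 CPM elsewhere. Their part in the results was not tested. Tet2 itself was at 13.4 CPM in WT untreated, 15.8 in WT anti-PD-L1, 23.0 in KO untreated and 17.9 in KO anti-PD-L1. The part of Tet2 that is deleted is not given in the sources used here and the chemistry counts 3′ ends, so these values do not check the genotype, and WT and KO are used as the labels give them. Cells with Xist and no Y-linked UMI were 770 of 1124 CD8 T cells in WT untreated and 930 of 1320 in WT anti-PD-L1, but 1457 of 1552 in KO untreated and 981 of 1028 in KO anti-PD-L1, a difference that runs along genotype. In such cells alone the log2 folds of Gzma were 3.42 for KO over WT untreated and 4.62 for treatment in WT, and that of Gzmb for KO over WT untreated was 0.021. Between 1 and 10 cell barcodes were shared by a pair of libraries.

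Gzma (chr13:113093824-113100981) and Gzmk (chr13:113171630-113180965) are neighbours on mouse chromosome 13, 70.6 kb apart, and Gzmb (chr14:56258836-56262334) lies on chromosome 14, all on the minus strand of GRCm38.p6. The sequences around their annotated starts are shown because the 3 genes were detected together or apart in the same cells. Each is the RefSeq sequence from 120 bases before to 30 bases after the start, at chr13:113100952-113101101 for Gzma, chr14:56262305-56262454 for Gzmb and chr13:113180936-113181085 for Gzmk.
Gzma: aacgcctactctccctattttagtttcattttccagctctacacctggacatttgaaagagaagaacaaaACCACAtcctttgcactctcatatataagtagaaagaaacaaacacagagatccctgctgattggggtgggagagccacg
Gzmb: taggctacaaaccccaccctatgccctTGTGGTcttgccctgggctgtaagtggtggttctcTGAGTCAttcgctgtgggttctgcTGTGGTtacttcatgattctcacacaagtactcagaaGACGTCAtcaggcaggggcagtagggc
Gzmk: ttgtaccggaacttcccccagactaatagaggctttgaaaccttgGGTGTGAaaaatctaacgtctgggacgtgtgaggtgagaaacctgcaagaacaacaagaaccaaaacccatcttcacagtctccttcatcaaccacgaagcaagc
Capitals mark matches, on either strand, to 5 motifs searched in the full windows of 300 bases (250 before to 50 after the start). They included TGTGGT, the core bound by RUNX factors, TGANTCA, bound by AP-1, GGTGTGA, bound by T-box factors, and GACGTCA, the core of a cAMP response element. The fifth was the core promoter element TATAAA. Gzma held TGTGGT once, on the reverse strand, at -50 to -45 from the start. Gzmb held it at -93 to -88 and at -34 to -29, with TGANTCA between them at -58 to -52 and GACGTCA at 4 to 10 after the start. Gzmk held GGTGTGA at -75 to -69. No 2 matches overlapped, and TATAAA was found in none of the 3. Only those exact letters were searched, so a TATA box of other letters would have been missed. Of 32851 RefSeq windows of the same length, 16.8% held TGTGGT, 7.81% TGANTCA, 3.98% GGTGTGA, 3.21% GACGTCA and 13.6% TATAAA. CpG dinucleotides, the usual sites of DNA methylation, numbered 5 in the Gzma window, 2 in that of Gzmb and 8 in that of Gzmk, beside a median of 7 over all windows. These matches describe letters in the windows and are not evidence of binding.

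Gzma, a tryptase-like granzyme, was lowest in WT untreated, next in KO untreated and higher in both treated libraries. CD8 T cells held 124 Gzma UMIs in WT untreated, or 25.6 CPM (95% Poisson interval 21.3 to 30.5). They held 6449 UMIs in WT anti-PD-L1, or 785 CPM (766 to 804). KO untreated held 2841 UMIs, or 356 CPM (343 to 369), and KO anti-PD-L1 5558 UMIs, or 691 CPM (673 to 710). By pooled UMIs the order from low to high was WT untreated, KO untreated, KO anti-PD-L1 and WT anti-PD-L1, and no neighbouring intervals overlapped. With every cell weighted equally the last 2 changed places, at 997 CPM in KO anti-PD-L1 and 926 in WT anti-PD-L1.

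As a log2 fold of CPM, Gzma was 3.80 higher in KO than in WT without treatment (95% interval 3.54 to 4.07) and 0.18 lower with anti-PD-L1 (log2 fold -0.18, -0.23 to -0.13). With treatment it was 4.94 higher in WT (4.68 to 5.21) and 0.96 higher in KO (0.89 to 1.02). The first and the third of these share the WT untreated library, and the comparisons that do not use it gave -0.18 and 0.96. The sign with anti-PD-L1 turned when every cell was weighted equally (0.11) and when the cycling-like cluster was left out (0.15), so no direction is drawn between the genotypes under treatment.

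The low value of WT untreated was set by few molecules. The 3 cells richest in Gzma held 17, 10 and 10 of its 124 UMIs, whereas single cells held up to 261 in WT anti-PD-L1, 137 in KO untreated and 244 in KO anti-PD-L1. A cluster outside the CD8 T cells, led by the killer lectin-like receptor genes Klra4, Klra7 and Klra8, had only 7 cells in WT untreated and yet 167 Gzma UMIs, more than its 1124 CD8 T cells together. Counting that cluster with the CD8 T cells raised WT untreated to 59.6 CPM, and the log2 folds against it became 2.69 for KO and 3.81 for anti-PD-L1. The cluster was NK-like by its markers, so these folds are not another CD8 T estimate. In the other listing of the barcodes, clustered anew, the folds for CD8 T cells were 3.06 and 4.03. It had 1048 CD8 T cells in WT untreated and 1235 in KO untreated, beside 1124 and 1552 here. In the 1053 WT untreated CD8 T cells found in both listings, Gzma had 110 UMIs here and 137 in the other. The NK cell list (Ncr1, Klrb1c, Klre1, Tyrobp and Fcer1g) summed to 99.3 CPM in WT untreated CD8 T cells, 206 in WT anti-PD-L1, 80.1 in KO untreated and 115 in KO anti-PD-L1, with 4 of the 5 genes detected in each library and Ncr1 at 0 UMIs in all 4. Most of that sum came from Klre1 and Fcer1g, whereas Klrb1c was at 0.751 to 2.07 CPM and Tyrobp at 5.15 to 8.76 CPM. The part of the NK cell list in the Gzma values was not tested. The monocyte list had the same order as Gzma by pooled UMIs, from 1061 CPM in WT untreated through 1753 in KO untreated and 2340 in KO anti-PD-L1 to 3008 in WT anti-PD-L1. Nearly all of that sum came from Ly6c2 and Plac8, which CD8 T cells also express, and Fcgr1 was at or under 5 UMIs in every library. The 4 globin genes summed to 140 CPM in WT untreated, 482 in KO untreated, 276 in KO anti-PD-L1 and 658 in WT anti-PD-L1. The part of either list in the Gzma values was likewise not tested.

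Gzmb, the caspase-activating granzyme, varied far less between libraries than Gzma. It had 6439 UMIs in WT untreated, or 1327 CPM (95% Poisson interval 1295 to 1360), and 11326 in KO untreated, or 1418 CPM (1392 to 1444). With anti-PD-L1 it had 16921 UMIs in WT, or 2059 CPM (2028 to 2090), and 21746 in KO, or 2705 CPM (2669 to 2741). By pooled UMIs both treated libraries thus lay above both untreated ones, with KO above WT in each pair, narrowly without treatment. The log2 fold of KO over WT was 0.10 untreated (0.05 to 0.14) and 0.39 with anti-PD-L1 (0.36 to 0.42). That of anti-PD-L1 over untreated was 0.63 in WT (0.59 to 0.68) and 0.93 in KO (0.90 to 0.96).

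Gzmk, the second tryptase-like granzyme, was sparse everywhere. It had 44 UMIs in WT untreated, or 9.07 CPM (6.59 to 12.2), and 41 in KO untreated, or 5.13 CPM (3.68 to 6.96). It had 259 in WT anti-PD-L1, or 31.5 CPM (27.8 to 35.6), and 96 in KO anti-PD-L1, or 11.9 CPM (9.67 to 14.6). WT anti-PD-L1 was highest, KO untreated lowest, and the intervals of WT untreated overlapped those of KO untreated and KO anti-PD-L1, its neighbours in the order. Gzmk was lower in KO by a log2 fold of -0.82 untreated (-1.47 to -0.17) and -1.40 with anti-PD-L1 (-1.75 to -1.06). It was higher with treatment by 1.80 in WT (1.33 to 2.29) and 1.22 in KO (0.68 to 1.78). The comparisons without WT untreated, -1.40 and 1.22, had the same signs as those with it. The untreated genotype value was -0.24 in the other listing, on 37 and 33 UMIs, and -0.36 without cluster 5, so its size is not settled.

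**Figure D1:**
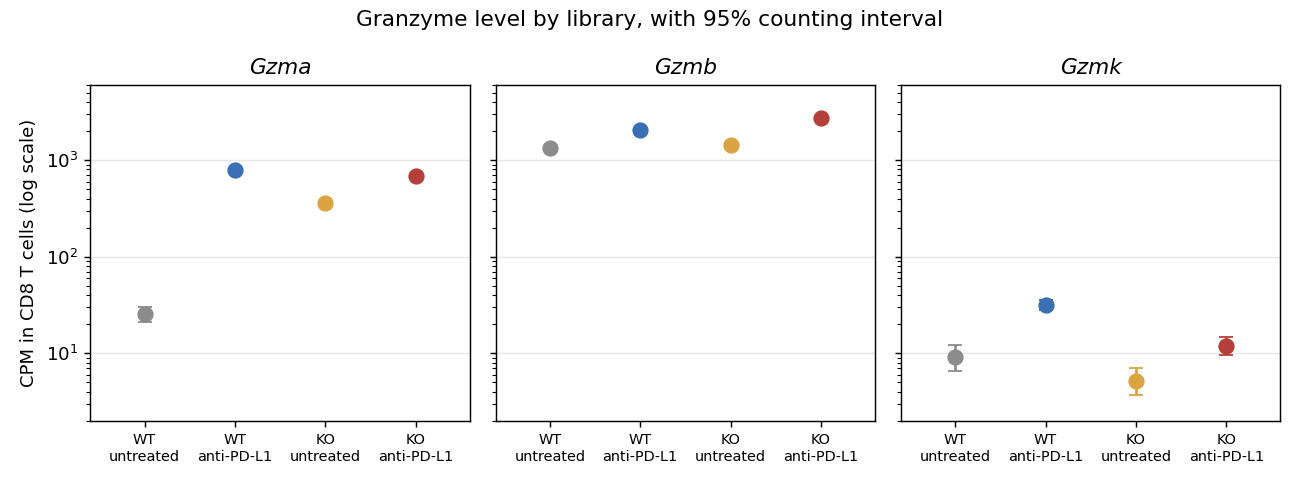
CPM of Gzma, Gzmb and Gzmk in the CD8 T cells of each library, on a log scale; each point is 1 library and bars are 95% Poisson intervals. Gzma ran from 25.6 CPM in WT untreated to 785 in WT anti-PD-L1, Gzmb from 1327 to 2705, and Gzmk from 5.13 to 31.5.

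Against the whole transcriptome, a gene was counted when its mean over the 4 libraries reached 20 CPM, which 4628 genes did, and when it differed at least 1.5-fold. Gzma and Gzmb reached that mean and Gzmk, at 14.4 CPM, did not. In KO over WT untreated, 1 of the 2 granzymes passed, Gzma, beside 14.8% of genes (7.91% higher and 6.89% lower). In KO over WT with anti-PD-L1 neither did, beside 2.55% of genes (1.08% higher and 1.47% lower). With anti-PD-L1 in WT both were higher, beside 31.9% of genes (11.3% higher and 20.5% lower), but Gzmb passed narrowly, at 0.63, and fell short of 1.5-fold without the cycling-like cluster, at 0.57. With anti-PD-L1 in KO both were higher again, beside 4.02% of genes (2.9% higher and 1.12% lower). The split of genes depended on the scale: with TMM factors the counts of higher and lower genes in KO over WT went from 366 and 319 to 439 and 216 untreated and from 50 and 68 to 29 and 83 with anti-PD-L1, and those of treatment in WT from 525 and 950 to 695 and 622. The median gene in that last comparison moved from -0.18 to -0.04 on the log2 scale, while Gzmb moved from 0.63 to 0.77.

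**Figure D2:**
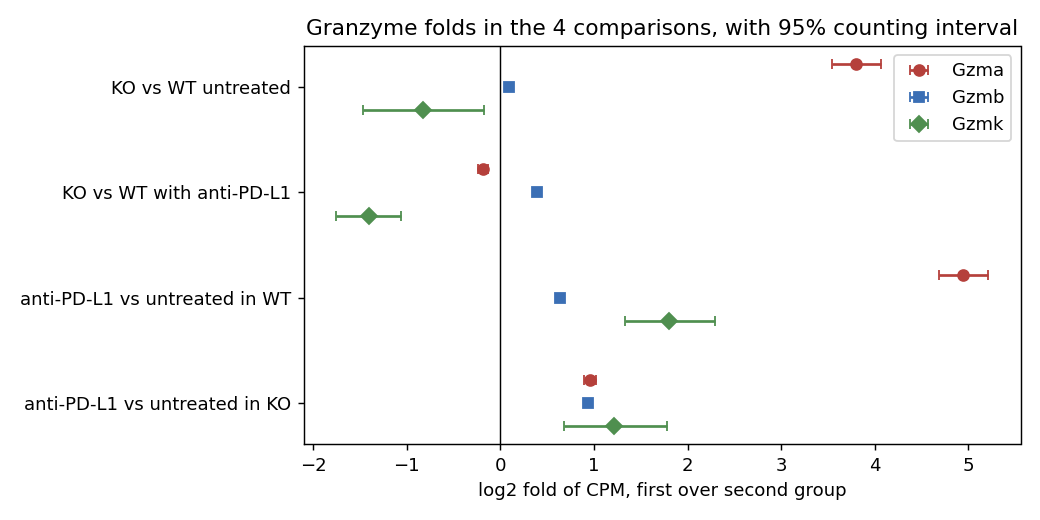
Log2 folds of the 3 granzymes in the 4 comparisons, with 95% exact binomial intervals and a line at 0. Gzma lies at 3.80 and 4.94 in the comparisons that use WT untreated and at -0.18 and 0.96 in the others, Gzmb lies between 0.10 and 0.93, and Gzmk lies below 0 for genotype and above 0 for treatment.

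The levels were then split into how many cells held a granzyme and how much each held. For this every cell was thinned to 2600 UMIs, which left 905 CD8 T cells in WT untreated, 1243 in WT anti-PD-L1, 1401 in KO untreated and 1007 in KO anti-PD-L1 and left out 219, 77, 151 and 21 shallower cells. Background was gauged in macrophage-like cells, which should lack granzymes, thinned in the same way. Free RNA in the droplets and doublets with T cells cannot be told apart in it. In WT anti-PD-L1, for example, 105 Gzma UMIs lay in 6.25% of the 176 macrophage-like cells before thinning. Melanoma-like cells were also used for Gzma and Gzmk.

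At least 1 Gzma UMI was found in 2.98% of WT untreated CD8 T cells (exact 95% interval 1.98 to 4.31), 26.2% of WT anti-PD-L1 (23.8 to 28.8), 13.7% of KO untreated (11.9 to 15.6) and 22.4% of KO anti-PD-L1 (19.9 to 25.1). Unthinned, the shares were 4.98%, 31.3%, 16.3% and 29.1%. In macrophage-like cells the thinned shares were 1.38% (0.167 to 4.89), 3.68% (1.36 to 7.84), 3.40% (1.82 to 5.75) and 1.12% (0.136 to 3.98), at unthinned median depths of 2998, 5877, 4818 and 9110 UMIs. The CD8 interval of WT untreated therefore overlapped that of its macrophage-like cells, where 2 of 145 held Gzma, and the other CD8 intervals lay above theirs. In the melanoma-like cells of WT untreated, 0 of 918 thinned cells held Gzma, which allows a share of up to 0.327%. That limit lies below the CD8 interval, so the gauges differ there. Why they differ was not tested. Among cells with Gzma the mean was 1.93 UMIs in WT untreated, where 20 of 27 such cells held 1 UMI, and 8.88, 8.72 and 10.7 UMIs in WT anti-PD-L1, KO untreated and KO anti-PD-L1. KO untreated and WT anti-PD-L1 thus differed in the share of cells with Gzma, while the mean per such cell was close.

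Gzmb was found in 45.2% of WT untreated cells (41.9 to 48.5), 65.4% of WT anti-PD-L1 (62.7 to 68.1), 55.0% of KO untreated (52.4 to 57.7) and 75.0% of KO anti-PD-L1 (72.2 to 77.6). Unthinned, these were 48.8%, 71.5%, 61.8% and 81.4%. Macrophage-like cells had thinned shares of 6.21%, 11.0%, 8.12% and 10.6%, with upper limits of at most 16.9%, so every CD8 share lay well above background. The mean among cells with Gzmb was 7.58, 8.37, 7.33 and 9.62 UMIs in the same order of libraries. KO exceeded WT in the share of cells in both pairs, whereas the mean per positive cell was close between the genotypes without treatment and higher in KO with it.

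Gzmk was found in 2.10% of WT untreated cells (1.27 to 3.26), 7.48% of WT anti-PD-L1 (6.08 to 9.09), 0.928% of KO untreated (0.495 to 1.58) and 3.08% of KO anti-PD-L1 (2.10 to 4.34). Unthinned, these were 2.67%, 11.1%, 2.19% and 5.35%. Macrophage-like cells held Gzmk in 0 of 145 cells of WT untreated, which allows a share of up to 2.07%, and in 1.23%, 0.262% and 0.559% of cells elsewhere, with upper limits of 4.36%, 1.45% and 3.07%. Only WT anti-PD-L1 had a CD8 interval clear of that of its macrophage-like cells. In WT untreated, 0 of 918 melanoma-like cells held Gzmk, which allows up to 0.327%, below the CD8 interval. In WT anti-PD-L1, KO untreated and KO anti-PD-L1, 0 of 68, 187 and 50 such cells held it. These allow up to 4.41%, 1.60% and 6%. Most positive cells held a single UMI.

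The transcripts were unevenly shared among cells. The 10% of CD8 T cells richest in Gzma held all of its thinned UMIs in WT untreated, 84.2% in WT anti-PD-L1, 97.0% in KO untreated and 89.5% in KO anti-PD-L1. The richest 10% for Gzmb held 56.7%, 45.6%, 56.9% and 43.1%. At least 20 Gzmb UMIs were found in 3.31% of WT untreated cells, 6.76% of WT anti-PD-L1, 3.93% of KO untreated and 9.24% of KO anti-PD-L1. For Gzma these shares were 0% (which allows up to 0.331%), 3.62%, 1.43% and 3.57%.

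**Figure D3:**
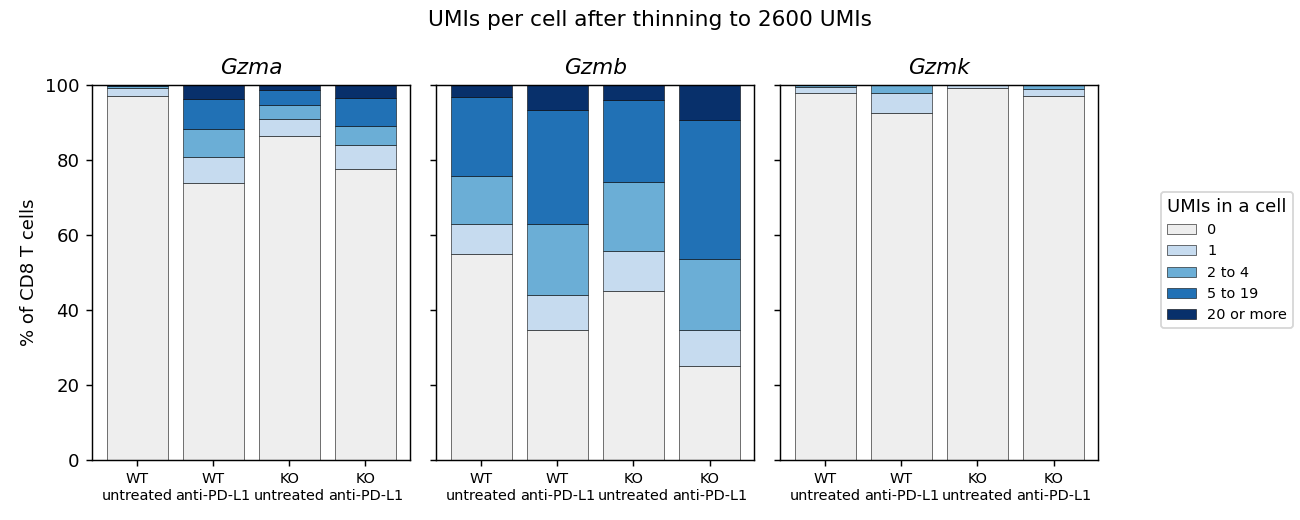
Share of CD8 T cells with 0, 1, 2 to 4, 5 to 19 or 20 or more UMIs of each granzyme after thinning every cell to 2600 UMIs, 1 bar per library. Cells without Gzmb were 54.8% in WT untreated and 25.0% in KO anti-PD-L1, and cells without Gzma were 73.8% or more of every library.

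Gzma was found mainly in cells that also held Gzmb. Of the cells with Gzma, 85.2% (exact 95% interval 66.3 to 95.8, 27 cells) held Gzmb in WT untreated, 87.7% (83.7 to 91.1, 326 cells) in WT anti-PD-L1, 87.0% (81.4 to 91.4, 192 cells) in KO untreated and 92.0% (87.7 to 95.2, 226 cells) in KO anti-PD-L1. Of the cells without Gzma, 44.0% (40.6 to 47.3), 57.5% (54.2 to 60.7), 50.0% (47.1 to 52.8) and 70.0% (66.7 to 73.2) held Gzmb. The intervals did not overlap in any library. The converse was less tight: 5.62%, 35.2%, 21.7% and 27.5% of the cells with Gzmb held Gzma, beside 0.806%, 9.30%, 3.97% and 7.14% of those without.

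Cells with more Gzma also held more Gzmb. In WT anti-PD-L1 the mean Gzmb was 3.98 UMIs in cells with 0 Gzma UMIs, 6.13 with 1, 8.63 with 2 to 4 and 12.5 with 5 or more. In KO untreated these means were 2.95, 5.23, 8.42 and 17.4, and in KO anti-PD-L1 5.42, 9.03, 11.8 and 16.7. WT untreated had 4 cells with 2 to 4 Gzma UMIs and 3 with more, too few for such steps. Pearson's r of log2(1 + thinned UMIs) between Gzma and Gzmb was 0.13, 0.37, 0.39 and 0.33 over the cells of the 4 libraries, given as a description since cells of a library share its source and depth.

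Gzmk was found more often in cells with Gzma than without in WT anti-PD-L1 (16.0%, 12.1 to 20.4, against 4.47%, 3.23 to 6.02) and in KO anti-PD-L1 (6.64%, 3.76 to 10.7, against 2.05%, 1.18 to 3.31). In KO anti-PD-L1 this rests on 15 cells with both genes, and its share of cells with Gzmk overlapped that of macrophage-like cells. In the untreated libraries 3 cells each held both genes. Gzmb was found in 84.9% of cells with Gzmk in WT anti-PD-L1 (76.0 to 91.5) against 63.8% of the rest (61.0 to 66.6), and in 93.5% of 31 cells in KO anti-PD-L1 (78.6 to 99.2) against 74.4% (71.5 to 77.1). In WT untreated these shares were 47.4% of 19 cells and 45.1%.

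By pattern in single cells, no granzyme of the 3 was found in 53.4% of WT untreated cells, 30.7% of WT anti-PD-L1, 43.0% of KO untreated and 23.0% of KO anti-PD-L1. Gzmb alone was the most frequent pattern with a granzyme, at 41.9%, 39.8%, 42.6% and 52.9%. Gzma with Gzmb but not Gzmk made up 2.32%, 19.2%, 11.7% and 19.2%, and Gzma alone 0.331%, 2.82%, 1.78% and 1.79%. All 3 genes were found together in 2 cells of WT untreated, 47 of WT anti-PD-L1, 3 of KO untreated and 15 of KO anti-PD-L1. The treated libraries of both genotypes thus had near-equal shares of Gzma with Gzmb and no Gzmk, while cells with Gzma and Gzmb, whether or not they held Gzmk, were 23.0% in WT anti-PD-L1 and 20.7% in KO anti-PD-L1. KO anti-PD-L1 had a larger share of cells with Gzmb alone and a smaller one without any of the 3.

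**Figure D4:**
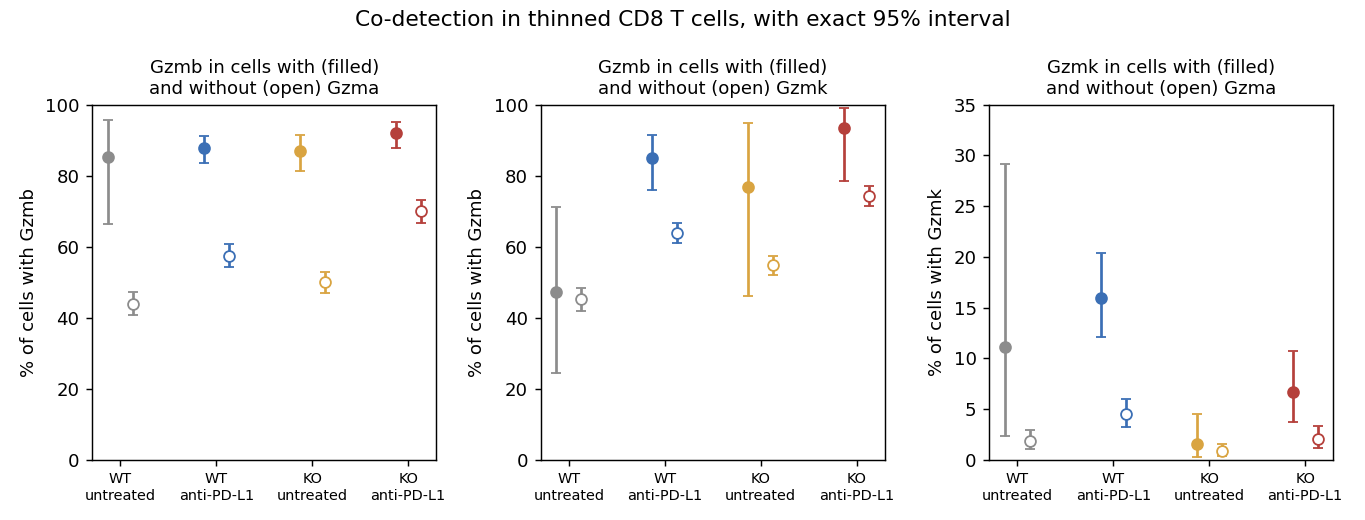
Share of thinned CD8 T cells with the second granzyme among cells with the first (filled) and without it (open), by library, with exact 95% intervals. Gzmb was found in 85.2% to 92.0% of cells with Gzma and in 44.0% to 70.0% of cells without it.

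The CD8 T cells fell into 8 clusters made without any granzyme gene among the clustering genes. Cluster 13 (Xcl1, Ccl4, Ccl3, Ifng; stimulated-like) had the highest Gzma, with 1974 CPM in WT anti-PD-L1, 2382 in KO untreated and 2844 in KO anti-PD-L1, and 54.3%, 47.6% and 52.3% of its thinned cells held it. Cluster 12 (Tcf7, Ccr7, Slamf6; progenitor-like) had 21.1, 16.6 and 16.0 CPM in the same libraries. The cycling-like cluster 6 and cluster 14, which is led by Gm156, Cxcr6 and Ccr2 and is not named, lay between them. Gzmb was high in clusters 6, 13 and 14 (1809 to 4537 CPM) and low in cluster 12 (109 to 220 CPM). WT untreated had too few cells in these 4 clusters to be listed, since at least 30 cells were asked for.

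In WT untreated, cluster 4 (Spp1, Igfbp7, Glipr1; not named) carried most of both transcripts. Its 417 cells held 101 of the 124 Gzma UMIs and 5475 of the 6439 Gzmb UMIs, or 3142 Gzmb CPM, and 86.9% of its thinned cells held Gzmb (82.9 to 90.4). The 533 cells of cluster 7 (Dapl1, Slamf6, Tcf7; progenitor-like) had 288 Gzmb CPM and 20.5% of cells with Gzmb (16.9 to 24.6). Since few cells of other libraries lay in clusters 4 and 7, each may be that library and not a type. The 36 KO untreated cells of cluster 4 had 169 Gzma CPM against 58.0 in WT untreated, a log2 fold of 1.54 (0.86 to 2.18), and 2373 Gzmb CPM against 3142, a log2 fold of -0.41 (-0.56 to -0.25). In cluster 3, which holds Tcf7 and Slamf6 together with mitotic genes among its leading genes, KO untreated had 18 Gzma UMIs and WT untreated 1, a log2 fold of 3.31 with an interval from 0.64 to 8.69.

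Between the genotypes under anti-PD-L1, Gzma differed in opposite directions by cluster. It was lower in KO in cluster 6 (178 against 718 CPM, log2 fold -2.01, -2.18 to -1.85) and in cluster 14 (285 against 823 CPM, -1.53, -1.67 to -1.38). It was higher in KO in cluster 13 (0.53, 0.46 to 0.59) and in cluster 5, which is led by 2810417H13Rik, Mybl2 and Ccr7 (85.0 against 35.2 CPM, 1.27, 0.65 to 1.93). Gzmb was close to equal in cluster 6 (0.02, -0.04 to 0.08) and higher in KO in clusters 14 (0.12), 13 (0.33), 12 (1.02) and 5 (1.58, 1.43 to 1.73). Gzmk was lower in KO in each of clusters 6, 13 and 14, with log2 folds of -2.29 (-3.05 to -1.58), -1.33 (-2.07 to -0.64) and -1.15 (-1.69 to -0.63). None of these differences between clusters was tested.

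With treatment in KO, Gzmb was higher by a log2 fold of 1.01 in cluster 5, 0.46 in cluster 6 and 0.52 in cluster 14, and was -0.10 in cluster 13, where the untreated level was already 4537 CPM. Gzma was 0.47 in cluster 5, -0.55 in cluster 6, 0.26 in cluster 13 and 0.00 in cluster 14 (-0.21 to 0.22). The log2 fold of Gzma over all KO cells, 0.96, was thus larger than in any of these clusters. Cluster 13 made up 26.8% of CD8 T cells in KO anti-PD-L1 and 14.2% in KO untreated, and cluster 5, at low Gzma, 9.53% and 26.0%.

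**Figure D5:**
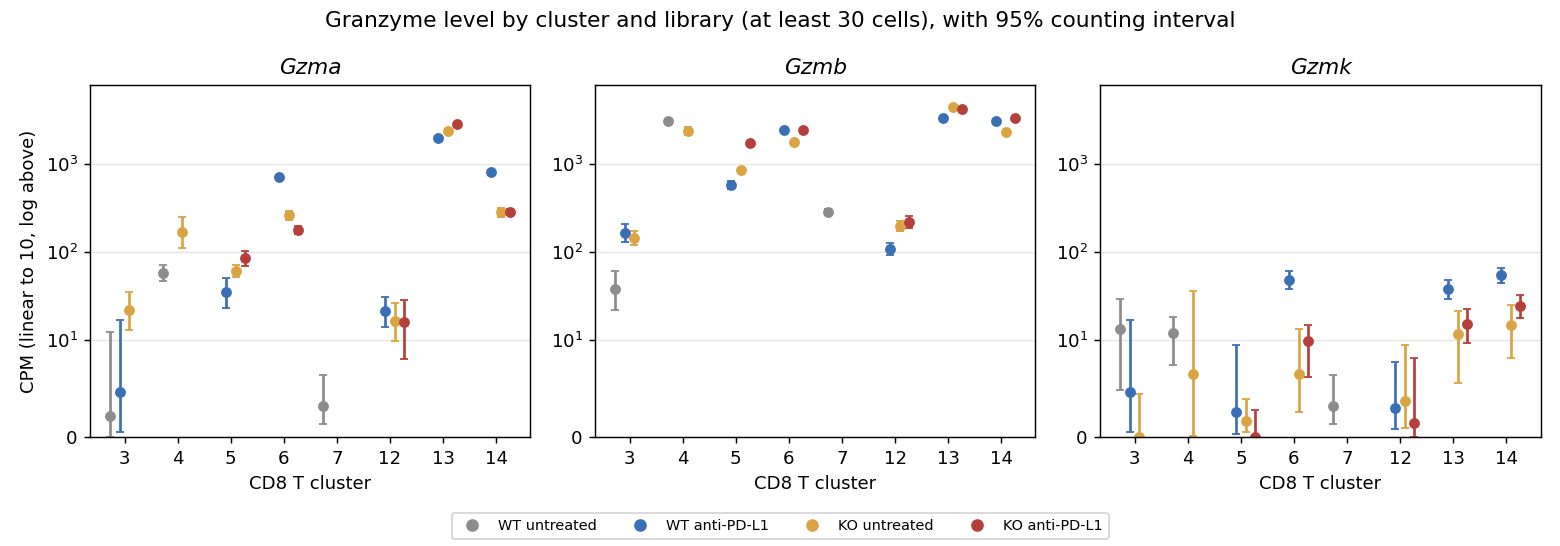
CPM of each granzyme by CD8 T cluster and library, where the library has at least 30 cells in the cluster, with 95% Poisson intervals; the axis is linear to 10 and logarithmic above. Gzma is highest in cluster 13, at 1974 to 2844 CPM, and at most 21.9 CPM in clusters 3, 7 and 12.

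Some genes that mark states of CD8 T cells divided the granzymes in the thinned cells, and others did so little or not at all. Gzmb was found in 9.47% of cells with Tcf7, the factor that maintains progenitor cells, and in 54.7% of cells without it in WT untreated. The same shares were 18.4% and 70.7% in WT anti-PD-L1, 18.5% and 62.3% in KO untreated and 32.9% and 78.7% in KO anti-PD-L1. Cells with Havcr2, which encodes the inhibitory receptor TIM-3, held Gzmb in 94.0%, 93.4%, 89.5% and 91.8% of cases. Cells without Havcr2 held Gzmb in 42.3%, 60.6%, 52.5% and 71.8%. Other genes of inhibited or exhausted cells did not divide Gzmb in this way. Cells with Pdcd1, which encodes PD-1, held it in 45.9%, 70.5%, 62.7% and 78.5%, and cells without in 44.4%, 59.5%, 49.9% and 71.4%. For Lag3 the shares were 46.1%, 68.4%, 57.9% and 75.9% with it and 44.6%, 60.2%, 51.2% and 72.9% without. Tox went the other way, at 35.4%, 43.1%, 47.2% and 65.2% with it and 48.2%, 68.0%, 56.0% and 75.9% without. Gzma followed the chemokine gene Ccl5: 6.23%, 34.3%, 23.1% and 28.1% of cells with Ccl5 held it and 1.33%, 5.46%, 2.64% and 4.22% of cells without. Cells with the proliferation gene Mki67 held Gzma in 7.87% of cases (4.88 to 11.9) against 15% of cells without it (13 to 17.2) in KO untreated, and in 16.9% (10.9 to 24.5) against 27.3% (24.7 to 30.0) in WT anti-PD-L1. In KO anti-PD-L1 the shares were 15.8% (10.3 to 22.7) and 23.6% (20.8 to 26.6), with overlapping intervals. In WT untreated they were 2.16% (0.592 to 5.44) and 3.19% (2.04 to 4.75), also overlapping. Gzmb was found in 49.2%, 63.1%, 46.9% and 77.4% of cells with Mki67 and in 44.2%, 65.7%, 56.8% and 74.6% without. Only the intervals of KO untreated were apart there. For Klf2, a gene of circulating T cells, the shares with Gzma were 32.5% (24.4 to 41.6) in cells with it and 21.0% (18.4 to 23.9) in cells without it in KO anti-PD-L1, and the intervals overlapped in the other 3 libraries.

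Among 3916 genes detected in at least 5% of thinned cells in every library, those most like Gzma by the mean of Pearson's r over the 4 libraries were Ccl5 (0.36), Gzmb (0.30), Ccl4 (0.30), Ccl3 (0.26) and Lgals3 (0.26). The lowest were the ribosomal protein genes Rps20, Rps15a and Rps18, each at -0.21. Most like Gzmb were Ccl5 (0.53), S100a6 (0.44), S100a4 (0.40), Ccl4 (0.37) and Lgals3 (0.37), and among the least like it were Tcf7 (-0.31) and Rpl3 (-0.30). For Gzma the value with Ccl5 was 0.09 in WT untreated and 0.42 to 0.47 in the other libraries. For Gzmk no gene passed 0.13, reached by Ccl5, and no finding is drawn from so few UMIs. These values are over cells that share library and depth.

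The other genes of the granule pathway were read from a list of 53, of which 52 were measured and 37 reached the mean of 20 CPM. The list was wider than the granule, with 14 regulators and 11 genes of granzyme targets and uptake. In KO over WT untreated 7 of the 37 were at least 1.5-fold higher and 5 lower, beside 7.91% and 6.89% of all genes, with a list median of -0.08 beside -0.10 over all genes. Regulators made up 4 of these higher and 1 of these lower genes, and targets and uptake 1 of the lower. With anti-PD-L1, 1 was higher and 2 lower, beside 1.08% and 1.47% of genes (medians 0.04 and 0.09). With treatment in WT 12 were higher and 10 lower, beside 11.3% and 20.5% of genes (0.22 and -0.18). Here regulators were 7 of the higher and 1 of the lower genes, and targets and uptake 5 of the lower. With treatment in KO 4 were higher and none lower, beside 2.9% and 1.12% of genes (0.30 and -0.01). In packaging, Srgn, the proteoglycan that holds granzymes in the granule, was higher by 0.77 in KO over WT untreated and by 1.03 with treatment in WT, with 0.04 for KO over WT with anti-PD-L1 and 0.30 for treatment in KO. Nkg7, a granule membrane protein, was higher by 0.72 with treatment in WT and was 0.36 for KO over WT untreated, with -0.15 and 0.21 in the comparisons without WT untreated. Ctsc, the protease that activates granzymes, stayed under 1.5-fold in all 4 comparisons (-0.06, 0.33, -0.01 and 0.39). Prf1, the pore-forming perforin, was below the mean asked for, at 20.6 CPM in WT untreated, 16.1 in WT anti-PD-L1, 10.6 in KO untreated and 23.9 in KO anti-PD-L1.

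Of the 8 genes of granule release, 7 reached the mean and only Stx11, a fusion protein of the granule, passed 1.5-fold, by 0.86 with treatment in WT, where 31.9% of all genes did. In the comparisons without WT untreated Stx11 was -0.11 for genotype and 0.42 for treatment. Among inhibitors, Serpinb9, which protects the killer cell from its own granzyme B, was higher by 1.02 in KO over WT untreated and by 1.62 with treatment in WT, with -0.02 and 0.58 in the comparisons without WT untreated. Its paralogue Serpinb9b was lower by the log2 fold -1.72 in KO over WT untreated and higher by 0.66 with anti-PD-L1. With treatment it was -0.74 in WT and 1.65 in KO. Of the other granzymes only Gzmc and Gzmf reached the mean. Gzmc had 291 CPM in WT untreated, 130 in WT anti-PD-L1, 19.8 in KO untreated and 48.4 in KO anti-PD-L1, an order unlike that of Gzma. Gzmc to Gzmg are close paralogues, so reads could be split among them.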

How the data were processed

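Each of the 4 single-cell libraries came as a table of UMI counts deposited by the authors, 1 row per barcode. The submitters' processing notes list Trim Galore 0.5.0 among several tools and mm10 as the build, with no role for either. The program that made these counts is not given in the sources used here. Most barcodes are listed a second time with other counts; the listing whose barcodes have 2 hyphens was used, and which one the authors used is not stated. Column names ending in a hyphen and a digit from 1 to 4, or not shared by all tables, were dropped. The other 16 samples (8 RNA, 8 ATAC) were not analysed here.

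Cells with at least 500 genes and at most 10% mitochondrial UMIs were scaled to 10000 UMIs, reduced to 2000 variable genes without receptor segments or granzymes, then to 30 components, and grouped by Leiden clustering (15 neighbours, resolution 1.0, scanpy 1.11.5, igraph 0.11.9), with no batch integration. No doublet caller was run, so doublets remain. Clusters with mean CD8 and CD3 levels of at least 0.5 of the highest cluster, and with fewer than 3 markers of another lineage among their top 10 genes, were taken as CD8 T cells. What counts as a leading lineage was defined after the clusters were seen. CPM are a gene's summed UMIs over all UMIs of those cells, times 1000000; intervals are exact at 95% (scipy 1.17.1). Since 1 cell can hold many UMIs of a gene, these intervals understate the error. Limits for a count of 0 use 3 counts. The functions for folds, thinning and likeness were tested on simulated data.

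The text names the 3 genes, the pathway list where a member is at least 1.5-fold apart or needed for the pathway, and the 5 most and 3 least like genes. Members, lists and rules were chosen with earlier results of these data known. Alternatives were the other listing, a filter of at least 1000 genes and at most 5% mitochondrial UMIs, granzymes in clustering, a gate on each cell's own UMIs, no cycling-like cluster, no top 1% of cells, equal weights, TMM factors (edgeR 4.0.16), no floor, 4000 UMIs or no thinning. Coordinates and promoters are from RefSeq on GRCm38.p6, where all 3 genes matched by symbol.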

Additional observations from a re-analysis of the deposited data

Results flagged for a closer look

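The log2 fold of Gzma between KO and WT had opposite signs without and with treatment, at 3.80 and -0.18. The second value turned to 0.11 with equal weights and to 0.15 without the cycling-like cluster, so no direction is drawn from it. With anti-PD-L1, the same contrast was 1.27 in cluster 5 and 0.53 in cluster 13, against -2.01 in cluster 6 and -1.53 in cluster 14. With treatment in KO, Gzma was 0.47 in cluster 5 and 0.26 in cluster 13 but -0.55 in cluster 6. Gzmb in KO over WT untreated was 1.96 in cluster 3 and -0.41 in cluster 4. With treatment in KO, Gzmb was 1.01 in cluster 5, 0.46 in cluster 6 and 0.52 in cluster 14, against -0.10 in cluster 13. Each is singled out because the values had opposite signs with counting intervals that left out 0, and none of these differences was tested, since each group is 1 library.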

How the results depend on the processing

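No paired analysis was possible because each group is 1 library. Over 11 settings, 89 of 132 log2 folds stayed within the counting interval, 41 left it with the same sign and 2 changed sign. The causes were not tested. The settings with Xist-only cells, with the Klra-led cluster and without cluster 5 were chosen after seeing the data. The comparisons are written KU (KO over WT untreated), KP (KO over WT with anti-PD-L1), TW (treatment in WT) and TK (treatment in KO), and the values outside the interval follow. For Gzma, the other listing gave 3.06 in KU, -0.059 in KP and 4.03 in TW. Leaving out the top 1% of cells gave 4.29 in KU, -0.24 in KP, 5.90 in TW and 1.37 in TK. Without the cycling-like cluster KP was 0.15 and TK 1.26, and with equal weights KP was 0.11 and TK 1.06. TMM factors gave -0.25 in KP, the gate on single cells 3.45 in KU and 4.59 in TW, and the stricter filter 1.04 in TK. Cells with Xist and no Y-linked UMI gave 3.42 in KU and 4.62 in TW. Adding the cluster led by Klra genes gave 2.69 in KU, -0.11 in KP and 3.81 in TW, and leaving out cluster 5, the CD8 cluster nearest the limit, 4.36 in KU, -0.087 in KP and 0.61 in TK. For Gzmb, leaving out the cycling-like cluster gave 0.033 in KU, 0.50 in KP, 0.57 in TW (under 1.5-fold) and 1.04 in TK. TMM factors gave 0.17 in KU, 0.33 in KP and 0.77 in TW, and equal weights 0.28 in KU, 0.71 in TW and 0.84 in TK. In TW and TK the other listing gave 0.73 and 0.97, and no top 1% gave 0.73 and 1.03. Xist-only cells gave 0.021 in KU and 0.97 in TK, and no cluster 5 gave 0.40 in KU, 0.74 in TW and 0.73 in TK. For Gzmk, no top 1% gave 2.65 in TW, and KU, within its interval, was -0.24 in the other listing and -0.36 without cluster 5. With granzymes among the clustering genes no fold left its interval. Without a floor, 3565, 1889, 4716 and 2059 genes passed 1.5-fold, against 685, 118, 1475 and 186. Of 48 co-detection shares 44 stayed within their interval, and Gzmb was more frequent in cells with Gzma in 16 of 16 cases. Between the listings, Gzma counts of the same CD8 T cell were equal in 75.1% to 94.0% of cells, and log values of Gzmk correlated at 0.57 to 0.89. Gzmk had 41 to 259 UMIs a library and Gzma 124 in WT untreated, so counting error is wide there.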

Other observations

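The 45 cells of the cluster led by Klra4, Klra7, Klra8 and Klrb1c, 7, 17, 16 and 5 in WT untreated, WT anti-PD-L1, KO untreated and KO anti-PD-L1, had the highest Gzma of any cells described here. Their Gzma was 5500, 8111, 4521 and 14508 CPM, and their Gzmb 4973, 2155, 1482 and 4363 CPM. Gzmk had 2 UMIs in WT anti-PD-L1 and 0 in the other 3. Ncr1 was at 37.1 to 288 CPM, Tyrobp at 1056 to 2632 CPM and Cd8a at 0 to 241 CPM in these cells. In the CD8 T cells these genes were at 0, 5.15 to 8.76 and 572 to 824 CPM. Each gene of the NK cell list was above its CD8 T level in every library, and each CD8 and CD3 gene below it. The cells were thus NK-like by these levels. In KO untreated, however, they held Cd3d, Cd3e and Cd3g at 889, 296 and 1038 CPM, beside 1343, 598 and 1422 in CD8 T cells. Whether T cells were among them was not tested. No cell type name was given by the naming rule, because only 1 gene of the NK cell list was among the top 10. With so few cells, 1 or 2 of them can set a value.

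Melanoma-like cells, which should lack granzymes, held Gzma in 0 of 918 thinned cells of WT untreated, which allows a share of up to 0.327%, and Gzmb in 1.96% of them (1.17 to 3.08). Macrophage-like cells of the same library held Gzmb in 6.21% (2.88 to 11.5). Background of Gzmb was thus not the same in the 2 kinds of cell. For Gzmb only the macrophage-like share, the higher one, was set beside the CD8 T cells.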
